A study of Mus musculus with 20 samples.

Results

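The mesothelial genes of the epididymal fat pad were described here: 10 genes, Msln, Upk3b, Upk1b, Wt1, Krt7, Krt8, Krt18, Krt19, Lrrn4 and Gpm6a, among 19505 genes with a measured probe set. A probe set is the group of array probes that reports on 1 transcript, and it was taken for a gene when the platform annotation gave that gene's symbol. Each of the 10 genes had 1 such probe set, and all 10 were measured. Whole fat pads of 20 male C57BL/6 littermates were profiled, with total RNA of each mouse, a biological replicate by the titles, on 1 expression array. All mice carried homozygous floxed Tnf alleles (TNF-αFlox/FLox), so the controls were floxed too. The 10 mice called cre were LyzMcre+/-, with Cre driven by the lysozyme M promoter that is active in macrophages and other myeloid cells. The 10 mice called wt were LyzMcre-/-. Mice of both genotypes ate chow until 10 weeks of age and a purified high-fat diet with 40% of calories from fat for 18 weeks, and were 28 weeks old at sampling. Sample titles name 2 batches with 5 wt and 5 cre mice in each, without saying what a batch is. The series compared cre with wt mice, and the mesothelial genes were followed through that comparison, through the batches and from mouse to mouse.

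The mesothelium is the single layer of flat cells that covers visceral organs and visceral fat depots, including the epididymal fat pad, and that subcutaneous fat lacks. Its cells descend from mesoderm, yet they form an epithelium with simple-epithelial keratins, and they make the lubricating surface of the peritoneal cavity. Mesothelial cells carry the glycoprotein mesothelin and uroplakin-family proteins on their surface and express the transcription factor Wt1. Several of these genes are shared with other epithelia: Krt8, Krt18 and Krt19 with glandular ducts, and Upk1b and Krt7 with the bladder lining. Glands and bladder lie close to the epididymal fat pad.

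The genes lie on mouse chromosomes of the mm10 build (GRCm38.p6), with gene spans from the RefSeq gene table. Msln spans chr17:25748613-25754378, Upk3b chr5:136038496-136044993 and Upk1b chr16:38773182-38800203. Wt1 spans chr2:105126529-105173614 and Lrrn4 chr2:132866686-132894010, both on chromosome 2. Gpm6a spans chr8:54779434-55060878 and Krt19 chr11:100140810-100145926. Krt7 (chr15:101412403-101427806), Krt8 (chr15:101996711-102004342) and Krt18 (chr15:102028216-102032026) lie together on chromosome 15.

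The promoters of Upk3b, Lrrn4 and Gpm6a are shown because these 3 genes varied together most closely across mice, as described further on. Each line gives the 250 bases before a listed start of the gene, 5′ to 3′ on the gene's strand, from RefSeq on GRCm38.p6: Upk3b at chr5:136038246-136038495 on the plus strand, Lrrn4 at chr2:132880863-132881112 on the minus strand, and the first listed start of Gpm6a at chr8:54779184-54779433 on the plus strand. The listed start of Lrrn4 lies inside the gene's span, 13148 bases from its 5′ end, while those shown for Upk3b and Gpm6a are the first bases of their spans. Capitals mark GGAATG, read on either strand, the core letters bound by TEAD transcription factors.
Upk3b: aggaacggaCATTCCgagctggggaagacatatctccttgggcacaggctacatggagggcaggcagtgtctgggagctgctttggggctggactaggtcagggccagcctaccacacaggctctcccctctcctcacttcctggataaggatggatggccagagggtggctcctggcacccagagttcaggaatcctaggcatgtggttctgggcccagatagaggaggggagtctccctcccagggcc
Lrrn4: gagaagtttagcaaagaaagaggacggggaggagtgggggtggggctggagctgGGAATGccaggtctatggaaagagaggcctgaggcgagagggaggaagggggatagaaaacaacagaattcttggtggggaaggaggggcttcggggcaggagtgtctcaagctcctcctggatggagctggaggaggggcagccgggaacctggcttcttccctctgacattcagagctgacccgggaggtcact
Gpm6a: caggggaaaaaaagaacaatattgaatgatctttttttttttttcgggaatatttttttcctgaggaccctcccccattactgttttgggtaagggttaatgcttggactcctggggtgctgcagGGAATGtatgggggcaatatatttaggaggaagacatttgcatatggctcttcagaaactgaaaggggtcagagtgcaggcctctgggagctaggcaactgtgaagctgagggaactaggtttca
The letters occurred once in each of these 3 windows, 241 bases before the start in Upk3b, 196 in Lrrn4 and 125 in Gpm6a. Of 32851 mouse promoter windows of the same length, 12.6% held them. Promoter windows were at hand for 6 of the 10 genes, and the 4 others, Msln, Upk1b, Wt1 and Krt19, are named only. The GGAATG letters had no match in the windows of Krt7, Krt8 and Krt18 or in the window of the second listed start of Gpm6a. Of the other motifs searched on both strands, the GC box GGGCGG had 4 matches in Krt7 (32.7% of all windows held it) and the TATA box TATAAA had 1 in the second Gpm6a window (12.4%). The AP-1 letters TGANTCA (6.75%) and the WT1 and EGR type letters GCGTGGG (4.3%) had no match in any window of the 6 genes. A match describes letters and not a bound site.

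The deposited values were log2 signals, on which a difference of 1 is a doubling. Array medians lay between 6.49 and 6.58, and correlations between arrays between 0.934 and 0.989. The array of wt replicate 6 had the lowest mean correlation with the other arrays, 0.949, followed by cre replicate 9 at 0.966. Across all 22206 probe sets, limma called 1 for genotype, a share of 0.0045%, and that probe set was Tnf, with means of 6.66 in wt and 4.67 in cre mice (limma adjusted p = 0.000822). Genes of 8 other tissues near or in the abdomen were averaged in each mouse, and 4 mice exceeded all others of the same genotype by over 1 log2 unit. In wt replicate 6 the mean of the seminal vesicle genes was 16.85, where the next wt mouse had 5.70. The mean of the prostate genes was 6.96 there against 5.16, through 1 of its 5 genes, Spink1, at 16.81. The other prostate genes had 3.76 to 5.47 in that mouse, below the array medians. In wt replicate 4 the pancreas mean was 7.71 against 5.94 and the liver mean 14.65 against 11.47. In cre replicate 2 the bladder epithelium mean was 5.98 against 4.90, with Upk1a at 8.67. In cre replicate 3 the seminal vesicle mean was 6.87 against 5.55. Genotype differences and correlations that changed most without these mice are given with and without them.

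Surface proteins known from the mesothelium come first. Upk3b encodes a uroplakin-family membrane protein and had a signal at the 85.0th percentile of the array. In batch 1 the wt mice had 9.72, 11.65, 11.86, 10.67 and 11.26, and the cre mice 11.17, 10.57, 8.82, 9.25 and 11.68. In batch 2 the wt mice had 9.38, 10.91, 10.55, 10.75 and 11.85, and the cre mice 11.49, 10.06, 11.43, 9.79 and 8.43. High and low mice occurred in each genotype and each batch, and the ranges overlapped almost throughout. From the lowest to the highest mouse Upk3b spanned 3.43 log2 units, a 10.8-fold range among littermates on one diet.

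Msln encodes mesothelin, a surface glycoprotein that binds the mucin Muc16. Its signal ran from 5.90 through a median of 6.93 to 7.63 in wt mice and from 5.77 through 6.38 to 7.14 in cre mice. The ranges overlapped, and 8 of 10 cre values were under the mean of wt. Its whole range was 3.64-fold, the smallest of the 10 genes.

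Lrrn4, a leucine-rich repeat membrane protein, ran from 5.92 through 6.79 to 8.29 in wt and from 5.34 through 6.58 to 7.97 in cre mice. Gpm6a, a membrane glycoprotein of the proteolipid family best known from neurons, ran from 9.14 through 10.94 to 11.93 in wt and from 9.01 through 10.59 to 11.50 in cre mice. For both genes the wt and cre ranges overlapped broadly, and wt replicate 10 was the highest mouse for both. Genes of Schwann cells and neurons averaged 5.01 to 5.52 in the 20 mice, below the array medians. Their relation to Gpm6a across mice is given further on, and the part of nerve cells in its signal was not tested.

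Wt1 encodes a zinc-finger transcription factor of the mesothelium that is also present in progenitors of visceral fat. It ran from 5.55 through 6.03 to 6.97 in wt and from 4.91 through 5.94 to 6.56 in cre mice. The highest Wt1 and the highest Upk3b were in the same mouse, wt replicate 5. That mouse also had the highest mean of the adipose progenitor genes, 13.32. Across mice, measured as described further on, that mean had r = 0.51 with Wt1 and 0.26 with Upk3b (permutation adjusted p = 0.353 and 0.742).

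Upk1b encodes a tetraspanin that pairs with a uroplakin partner in the bladder lining. It ran from 7.02 through 8.46 to 12.54 in wt and from 6.97 through 8.11 to 9.36 in cre mice. The value of 12.54 belonged to wt replicate 6 and was the only one above 9.36.

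The keratins form the intermediate filaments of simple epithelia, with Krt8 and Krt18 as obligate partners and Krt7 and Krt19 more restricted. Krt18 had 6.26, 6.55, 5.54, 6.45 and 5.90 in wt mice of batch 1 and 5.18, 6.24, 11.39, 5.36 and 5.40 in those of batch 2. In cre mice it had 6.01, 6.13, 5.14, 5.28 and 7.08 in batch 1 and 6.60, 5.60, 5.44, 6.38 and 5.77 in batch 2. Of these 20 values, 19 lay between 5.14 and 7.08, and wt replicate 6 stood at 11.39.

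Krt8 repeated this picture, with 9.37 in wt replicate 6 and at most 6.89 in any other mouse. Krt19 had 10.05 in wt replicate 6 and at most 8.39 elsewhere. Krt7 did not: wt replicate 6 had 7.41, near the wt median of 7.37, and its highest mouse was cre replicate 2 with 9.53, where the other mice had at most 8.24. Low values also gathered in some animals. The mouse cre replicate 10 was lowest or second lowest in 5 of the 10 genes, and cre replicate 5 in 4.

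**Figure D1:**
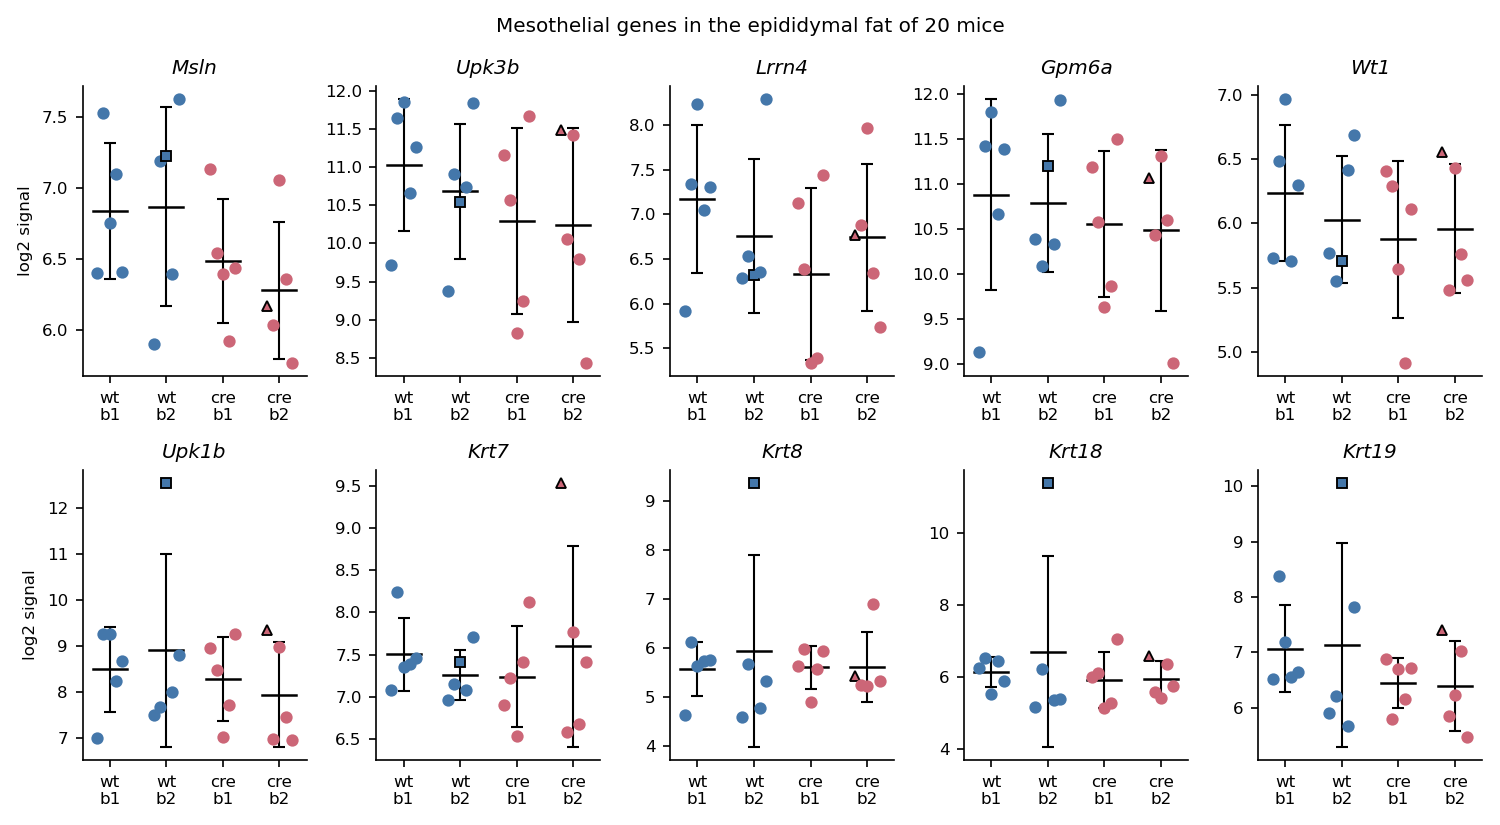
Log2 signal of each of the 10 genes in each mouse, with separate vertical scales; the columns are wt and cre mice of batch 1 and batch 2, points are mice, the black line is the mean and the bars are the SD of 5 mice. The black-edged square is wt replicate 6, which stands apart for Upk1b (12.54), Krt8 (9.37), Krt18 (11.39) and Krt19 (10.05), and the black-edged triangle is cre replicate 2, the highest for Krt7 (9.53).

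None of the 10 genes passed the genotype test after adjustment over all probe sets (limma adjusted p from 0.785 to 0.985). The cre mean was below the wt mean for 9 of the 10, where 49.3% of all probe sets had a difference below 0. At an unadjusted p under 0.05 limma called 1 of the 10, Msln, which was lower in cre mice, beside 6.29% of all probe sets in either direction and 3.05% lower in cre. That p was not under 0.05 in 18 of the 31 alternatives run. With a fold of at least 1.5 added to that p, 0 of the 10 were called, beside 1.04% of all probe sets. For 0 of the 10 were the wt and cre mice free of overlap, beside 0.00901%. Several lists of other cells and tissues were also one-sided, and others were not. Below the wt mean in cre were 10 of 11 macrophage genes, 9 of 9 of glandular epithelium, 8 of 8 of seminal vesicle and 7 of 7 of exocrine pancreas. Above it were 11 of 11 adipocyte genes, 8 of 8 of liver and 7 of 8 endothelial genes. Nearer an even split were testis and Schwann cells and neurons, each with 4 of 8 below, kidney with 4 of 7 and adipose progenitor with 5 of 8. The part of these other lists in the mesothelial differences was not tested, apart from the adipocyte covariate given further on. Over the 10 mesothelial genes the median difference was −0.45, beside 0.01 over all 19505 genes. In bulk tissue, fewer mesothelial cells and less RNA per cell cannot be told apart.

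Among the surface genes, Msln had 6.85 ± 0.57 in wt and 6.38 ± 0.45 in cre mice (SD, n = 10 each), a log2 difference of −0.47 (SE 0.22, 95% interval −0.93 to −0.01, unadjusted p = 0.0440, limma adjusted p = 0.785). By batch it was −0.35 in the first and −0.59 in the second. It was −0.42 without wt replicate 6 (unadjusted limma p = 0.0752), −0.43 without wt replicate 4 (p = 0.0757) and −0.35 without the 4 mice set apart (p = 0.189). Upk3b had 10.86 ± 0.85 in wt and 10.27 ± 1.18 in cre mice (SD, n = 10 each), a difference of −0.59 with a 95% interval of −1.46 to 0.28 (limma adjusted p = 0.838). Lrrn4 differed by −0.42 (interval −1.15 to 0.31), with −0.83 in batch 1 and −0.01 in batch 2. Gpm6a differed by −0.32 (interval −1.04 to 0.41) and was nearly alike in both batches, −0.33 and −0.30. All 3 intervals include 0 and also hold differences of about 1 log2 unit, so at this number of mice a halving was not separated from no difference.

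Wt1 differed by −0.21 (interval −0.68 to 0.25) and Upk1b by −0.58 (interval −1.68 to 0.52). Of the keratins, Krt19 differed by −0.68 (interval −1.56 to 0.21) and was below the wt mean in 9 of 10 cre mice. That wt mean, 7.10, includes wt replicate 6 at 10.05, and the medians were 6.61 in wt and 6.47 in cre mice. Krt18 differed by −0.48 (interval −1.63 to 0.66) and Krt8 by −0.15 (interval −1.04 to 0.74). Krt7 differed by 0.04 (interval −0.57 to 0.64), the only one of the 10 with a higher mean in cre mice.

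Single mice carried a large part of the keratin and Upk1b differences. Without wt replicate 6 the difference was −0.13 for Upk1b, −0.33 for Krt19, 0.08 for Krt18 and 0.27 for Krt8, and 7 of the 10 genes were on average lower in the cre group, with a median of −0.26. Without the 4 mice set apart by another tissue, 8 wt and 8 cre mice remained. That rule can set apart only the highest mouse of a genotype, so genes raised in several mice stay in. The liver mean was still 12.75 in cre replicate 4 and 12.57 in cre replicate 10, beside 6.64 in wt replicate 2. In the remaining mice 8 of the 10 genes were lower in cre, with a median of −0.38. Krt18 differed by 0.06, Krt8 by 0.30 and Krt7 by −0.20. Msln, Upk3b, Lrrn4, Gpm6a and Wt1 were lower in cre mice in each of the alternatives run. The adipocyte genes averaged 15.52 ± 0.72 in wt and 15.80 ± 0.27 in cre mice (SD, n = 10 each), with its lowest value, 13.94, in wt replicate 6. With that mean as a covariate, 8 of the 10 genes were lower in cre and the median difference was −0.18.

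**Figure D2:**
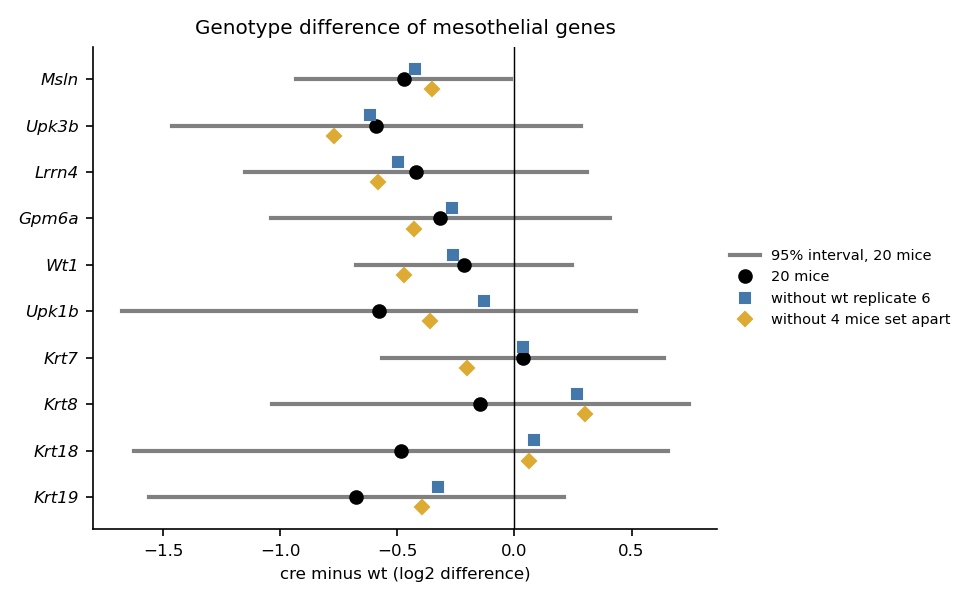
Log2 difference, cre minus wt, for each of the 10 genes; black points use all 20 mice with the 95% interval in grey, blue squares leave out wt replicate 6 and yellow diamonds leave out the 4 mice set apart by another tissue. Every interval but that of Msln crosses 0, and Krt8 and Krt18 move to the other side of 0 when wt replicate 6 is left out.

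The batch coefficients of the 10 genes lay between −0.20 and 0.30, and limma called 0 of the 10 after adjustment, as it did 0 of all 22206 probe sets (127 probe sets, 0.572%, had an unadjusted p under 0.05). That share is below the 5% that uniform p-values would give, and whether the deposited values had been adjusted for batch is not given in the sources used here. The median size of the batch difference over all probe sets was 0.06, beside 0.13 for genotype. The interaction of genotype and batch was not called by limma for any of the 10 genes (adjusted p from 0.815 to 0.996) or for any other probe set, with 1645 probe sets, 7.41%, at an unadjusted p under 0.05.

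Of 18 further genes listed for the mesothelium and measured, none passed the genotype test after adjustment, and 13 were on average lower in cre mice, with a median difference of −0.23. At an unadjusted p under 0.05 limma called 1 of them, Igfbp6, which encodes a binding protein of insulin-like growth factors (difference −0.58, SE 0.25, limma adjusted p = 0.774). Nkain4, named for interacting with the sodium pump, had a difference of −0.39, and Rspo1, a secreted enhancer of Wnt signalling, one of −0.37. The genes with the highest signals of the list had opposite signs, with 0.19 for Efemp1, a matrix protein, 0.14 for Igfbp5 and −0.58 for Igfbp6.

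The genes varied together from mouse to mouse. Covariation was measured on deviations from the mean of each of the 4 cells of genotype and batch, so that mean differences between these cells do not enter, and tested by permuting mice within the cells. Of the 45 pairs of the 10 genes, 15 passed an adjusted p of 0.05 with Pearson's r and 22 with Spearman's rho, adjusted over the 45 pairs. Upk3b and Lrrn4 had r = 0.88 (permutation p = 3e-05, adjusted p = 0.00045) and rho = 0.88 (permutation p = 4e-05, adjusted p = 0.0009). Without the 2 mice farthest from the median of Upk3b their r was 0.86, and it was 0.97 in batch 1 and 0.79 in batch 2. Upk3b and Gpm6a had r = 0.88 and rho = 0.88 (permutation adjusted p = 0.00045 for each), and r = 0.82 without the 2 farthest mice. Lrrn4 and Gpm6a had r = 0.89 (permutation adjusted p = 0.00045) and rho = 0.90 (permutation adjusted p = 0.00105), and r = 0.88 without the 2 farthest mice. Mice high in any of these 3 genes for their genotype and batch tended to be high in the other 2.

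Wt1 joined them, with r = 0.77 and rho = 0.76 against Upk3b (permutation adjusted p = 0.0047 and 0.0040), and r = 0.81 without the 2 farthest mice. Msln followed less closely. Msln and Upk3b had r = 0.63 (permutation p = 0.00461, adjusted p = 0.0189) and rho = 0.58 (permutation p = 0.0123, adjusted p = 0.0291). Their r was 0.49 without the 2 mice farthest from the median of Msln, 0.51 in batch 1, 0.73 in batch 2, 0.68 in wt and 0.64 in cre mice. Over the 10 pairs of Msln, Upk3b, Wt1, Lrrn4 and Gpm6a the median r was 0.73, from 0.43 to 0.89, and 9 of 10 passed. The pair that did not was Msln and Wt1.

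Upk1b came closer to these genes once wt replicate 6 was left out. Upk3b and Upk1b had r = 0.58 over 20 mice (permutation adjusted p = 0.0307), rho = 0.79 (permutation adjusted p = 0.0031), r = 0.52 without the 2 mice farthest from the median of Upk3b and r = 0.92 without wt replicate 6. Without that mouse, r between Upk1b and Lrrn4 was 0.82 instead of 0.43, between Upk1b and Wt1 0.82 instead of 0.41, and between Upk1b and Gpm6a 0.88 instead of 0.68. Rank correlation, which gives a single mouse less weight, was 0.64 for Upk1b and Lrrn4 over all 20 mice. Upk1b also covaried with keratins. Its 4 keratin pairs had a median r of 0.77, with 2 passing, and of 0.46 without wt replicate 6, with 1 passing. Upk1b and Krt19 had r = 0.81 (permutation adjusted p = 0.0104) and 0.57 without that mouse. Upk1b and Krt7 had r = 0.53 (permutation adjusted p = 0.0134), and 0.73 without it (permutation adjusted p = 0.0043).

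Among Krt8, Krt18 and Krt19, leaving out wt replicate 6 lowered r instead. Krt8 and Krt18 had the highest r of the 45 pairs, 0.90 (permutation p = 0.00224, adjusted p = 0.0112), with rho = 0.76 (permutation adjusted p = 0.0082). Without the 2 mice farthest from the median of Krt8, wt replicate 6 and cre replicate 8, r was 0.53, and it was 0.46 in batch 1 and 0.95 in batch 2, the batch of both mice. Without wt replicate 6 alone it was 0.53 (permutation adjusted p = 0.0517). Krt8 and Krt19 went from 0.78 to 0.41, and Krt18 and Krt19 from 0.76 to 0.29. Over the 6 keratin pairs the median r was 0.56, with 2 pairs passing, and without wt replicate 6 it was 0.44, with 0 passing. Between the keratins and Msln, Upk3b, Wt1, Lrrn4 and Gpm6a, the median r of 20 pairs was 0.24, with 0 passing (4 passed with Spearman's rho). Without wt replicate 6 that median was 0.41, with 2 passing.

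**Figure D3:**
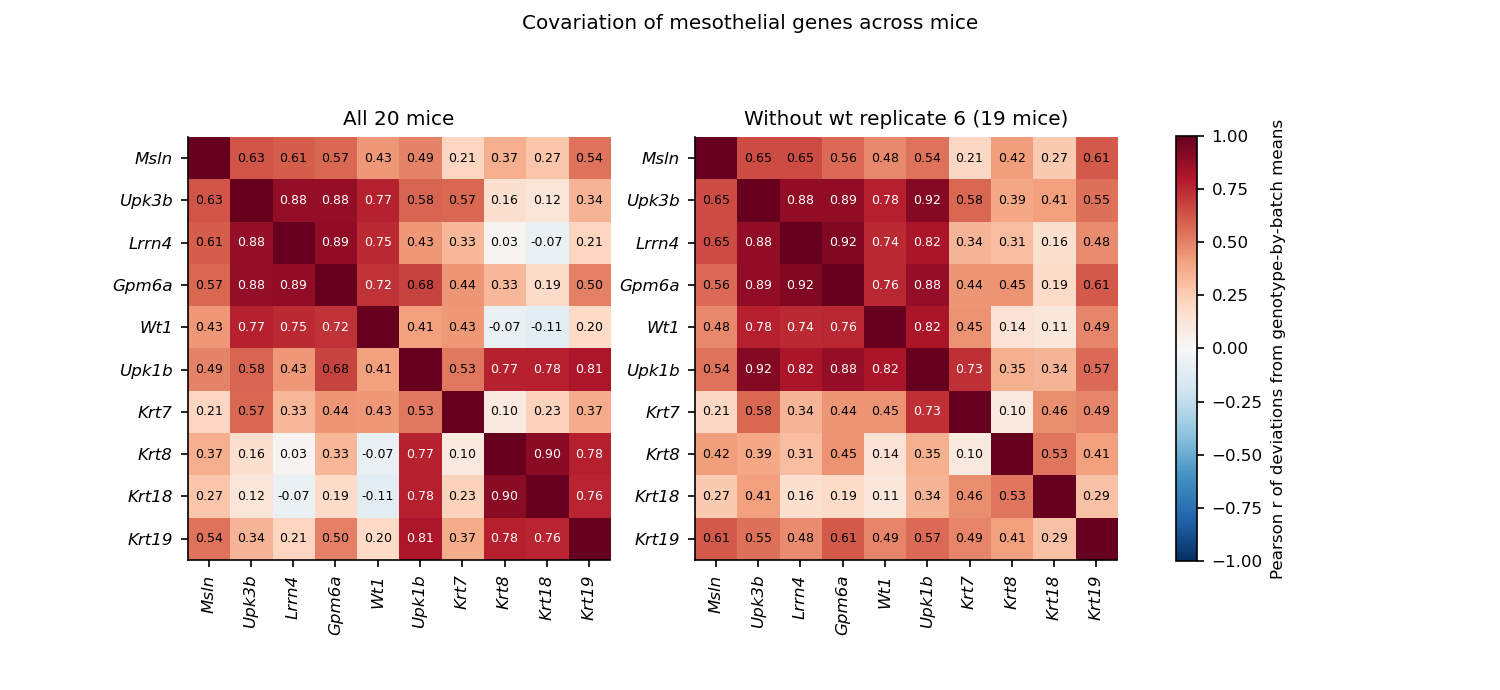
Pearson r between the 10 genes, on deviations from the cell means of genotype and batch, over 20 mice on one side and without wt replicate 6 on the other. Upk1b has r = 0.58 with Upk3b over 20 mice and 0.92 without that mouse, whereas Krt8 and Krt18 go from 0.90 to 0.53.

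Lists of other cells and tissues were set beside these genes, in 160 relations of 10 genes with 16 list means. The 3 relations that passed adjustment over the 160 with Pearson's r were those of the other mesothelial genes with Upk1b (r = 0.83, rho = 0.82, permutation adjusted p = 0.0048 for each), Krt19 (r = 0.82, rho = 0.82, permutation adjusted p = 0.0048 and 0.0056) and Gpm6a (r = 0.79, rho = 0.75, permutation adjusted p = 0.0112 and 0.0181). Without the 2 mice farthest from the median of the gene on the x axis these were 0.80, 0.74 and 0.66. They were 0.81, 0.74 and 0.84 in batch 1. In batch 2 they were 0.85, 0.89 and 0.76. Without wt replicate 6 these 3 had r = 0.80, 0.78 and 0.84, and 3 more relations with the other mesothelial genes passed: Upk3b (r = 0.78 instead of 0.66, permutation adjusted p = 0.0080), Wt1 (0.73 instead of 0.55, permutation adjusted p = 0.0189) and Lrrn4 (0.73 instead of 0.56, permutation adjusted p = 0.0172). The same 6 relations passed without the 4 mice set apart, when Upk1b, Krt19 and Gpm6a had r = 0.81, 0.81 and 0.85. Krt18 had r = 0.93 with the glandular epithelium mean (rho = 0.77, permutation adjusted p = 0.187 and 0.113) and 0.41 without wt replicate 6. With the seminal vesicle mean it had r = 0.89 (rho = 0.41, permutation adjusted p = 0.549 and 0.595) and −0.17 without that mouse. Upk3b had r = −0.05 with the seminal vesicle mean and −0.12 with the adipocyte mean (permutation adjusted p = 0.954 and 0.941). The mean of Schwann cell and neuron genes had r = 0.59 with Krt7, 0.55 with Upk1b and 0.46 with Gpm6a. These did not pass (permutation adjusted p = 0.187, 0.194 and 0.407).

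**Figure D4:**
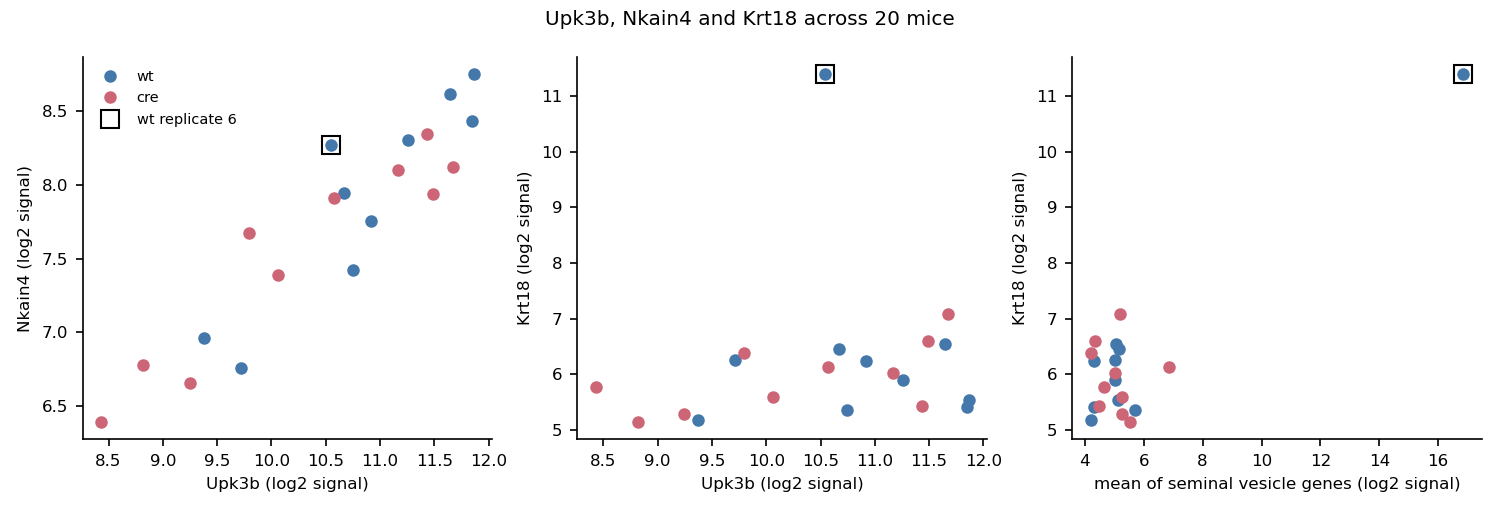
Log2 signal in 20 mice, cell means not removed, for Upk3b against Nkain4, Upk3b against Krt18 and the seminal vesicle mean against Krt18. Each point is a mouse and wt replicate 6 is boxed. In the boxed mouse Krt18 (11.39) and the seminal vesicle mean lie far above the other mice, while Nkain4 (8.27) lies inside their range.

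The mouse with the highest Krt8, Krt18 and Krt19 was also high for seminal vesicle and glandular epithelium genes. In wt replicate 6 all 8 seminal vesicle genes and 8 of 9 glandular epithelium genes had their highest value of the 20 mice. Of the prostate genes 1 of 5 did, and of the exocrine pancreas genes 0 of 7. The glandular epithelium mean was 8.45 there and 4.31 to 5.55 in the others. The adhesion genes Cdh1 (11.25), Epcam (7.76) and Cldn4 (10.29) had their highest values there too. None of the 3 core mesothelial genes, Msln, Upk3b and Lrrn4, was highest in that mouse, where they had 7.23, 10.55 and 6.32. Of the 18 other mesothelial genes, 5 were highest there: Ezr, Dsp, Podxl, Crb2 and Cdh1, which is also on that list. The mean of that list, 8.85, was likewise the highest of the 20 mice, with at most 8.74 in the others. Whether the glandular genes and the 4 high genes, Upk1b, Krt8, Krt18 and Krt19, came from the same cells was not tested. In cre replicate 2, the mouse with the highest Krt7, 6 of 8 bladder epithelium genes were highest. Among them, Upk1a was 8.67 where the other mice had at most 5.67. Krt7 had r = 0.77 with the bladder epithelium mean (rho = 0.64, permutation adjusted p = 0.146 and 0.132), and 0.32 without the 2 farthest mice. The part of bladder cells in that Krt7 value was not tested.

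Across all 19505 genes, likeness to the mesothelium was measured as Pearson's r with the mean of Msln, Upk3b and Lrrn4, over 20 mice with cell means removed. It is a description: mice share their RNA extract across genes, and Msln, Upk3b and Lrrn4 are parts of that mean. Over all genes r had a median near 0 and lay between −0.39 and 0.40 for the central 90%, with a 99th percentile of 0.56. Gpm6a ranked 5, Wt1 12 and Upk1b 199 (r = 0.56, and 0.87 without wt replicate 6). Krt7 ranked 654 (r = 0.45). Krt19, at rank 1300 with r = 0.37, Krt8, at rank 4658 with r = 0.17, and Krt18, at rank 6664 with r = 0.10, lay inside the central 90%. Without wt replicate 6 the central 90% ran from −0.42 to 0.42. Krt19 was then above it with r = 0.58, while Krt8 with 0.40 and Krt18 with 0.31 were inside it, in its upper part. In both settings Gpm6a, Wt1, Upk1b and Krt7 were above the central 90%, so Krt8 and Krt18 were the least like that mean among the 7 genes that are no part of it, by an amount that was smaller without wt replicate 6.

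The 12 genes most like that mean, apart from the 10 genes themselves, began with Nkain4 (r = 0.93, and 0.96 without wt replicate 6) and Pkhd1l1 (0.89), a large membrane protein related to fibrocystin. Both were on the list of other mesothelial genes. Next were Tnfrsf11b (0.85), the decoy receptor osteoprotegerin, Ptgis (0.85), the synthase of prostacyclin, Slc39a8 (0.83), a zinc transporter, and Cyp2s1 (0.83), a cytochrome P450. Hmgn1 (0.78), a nucleosome-binding protein, Wnt2b (0.75), a Wnt ligand, Fmod (0.75), the matrix protein fibromodulin, Birc7 (0.75), Zfp707 (0.74) and Spock2 (0.74) completed the 12. Cyp2s1 had the largest genotype difference of the 12, −0.67 (SE 0.23, limma adjusted p = 0.770). The 6 most opposed were Vmn1r158 (−0.84), Sla2 (−0.78), Tas2r106 (−0.71), Klri2 (−0.70), Olfr686 (−0.70) and Olfr1089 (−0.69), all with mean signals between 4.26 and 5.54, below the array medians. Of the other mesothelial genes, Pdpn, the membrane protein podoplanin, ranked 25 (0.71), Rspo1 53 (0.65) and Bnc1, a zinc-finger protein, 94 (0.61), while Cdh1 ranked 13933. Of the 18 other mesothelial genes, 7 lay above the central 90% of all genes and 11 inside it, among them Calb2, Muc1, Aldh1a2 and Cldn15.

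**Figure D5:**
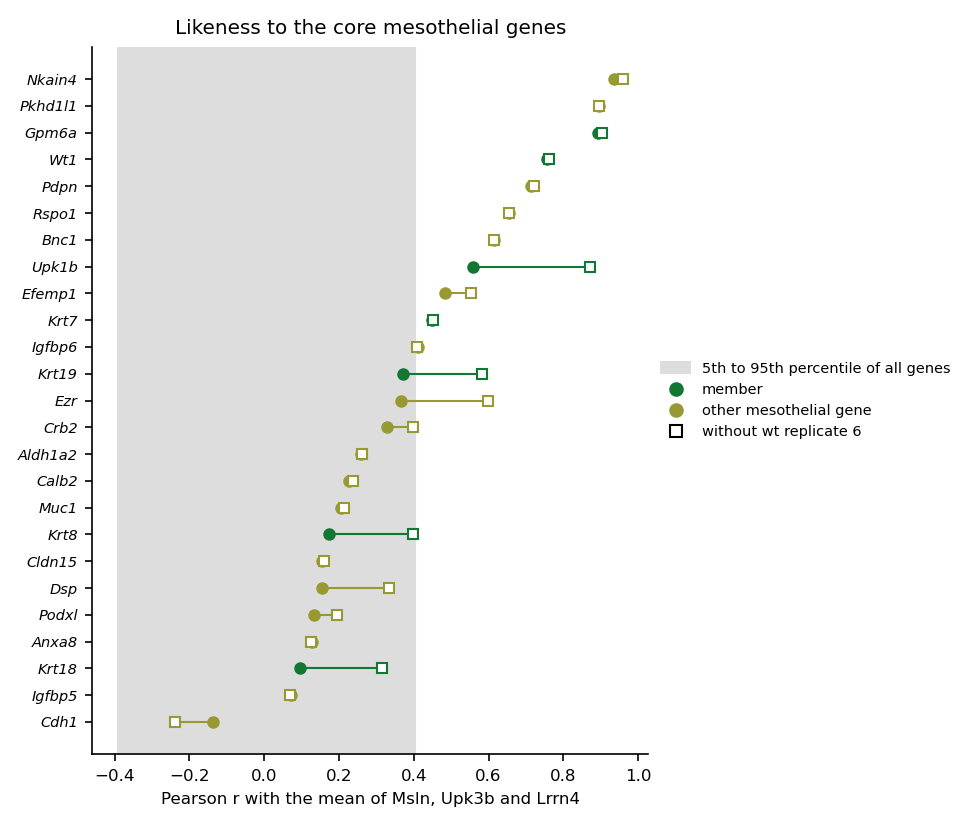
Pearson r with the mean of Msln, Upk3b and Lrrn4 over 20 mice, cell means removed, for the other members of the 10 and for other mesothelial genes; filled points use all 20 mice, open squares leave out wt replicate 6 and the grey band holds the central 90% of all 19505 genes over 20 mice. Nkain4 (0.93) lies far outside the band, and Krt8 (0.17) and Krt18 (0.10) lie inside it. When wt replicate 6 is left out, Upk1b moves from 0.56 to 0.87, Krt19 from 0.37 to 0.58, Krt8 from 0.17 to 0.40 and Krt18 from 0.10 to 0.31.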

How the data were processed

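Total RNA of the epididymal fat pad of 20 mice was measured on expression arrays. The authors deposited log2 signals for 22206 probe sets. The submitters' processing notes name RMA, mm10 and Transcriptome Analysis Console 4.0.2.15; any adjustment for batch is not given in the sources used here. RMA makes array distributions alike, so a shift common to most genes is not visible, and low signals hold background, which compresses differences. Titles gave genotype, batch and replicate number. The platform annotation gave gene names (19572 had 1 symbol and 2634 probe sets were unnamed here), and all 19572 matched RefSeq. The probe set with the highest mean stood for a gene.

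The genotype test was limma 3.58.1 (R 4.3.3), with genotype and batch as terms and Benjamini-Hochberg adjustment over all probe sets (threshold 0.05). Differences are cre minus wt. The test was checked on simulated data. Correlations were tested two-sided with 100000 permutations of mice within the 4 cells of genotype and batch, using Python 3.11.15, NumPy 2.4.6 and SciPy 1.17.1. The smallest p these permutations can give is 1e-05. Of 161 genes in the lists, 148 were measured.

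Named were the 10 members, the further mesothelial genes with an unadjusted p under 0.05 or the 3 highest means, the 12 genes most like and the 6 most unlike the mean of Msln, Upk3b and Lrrn4 (predicted Gm genes and Rik clones left out), and genes of other lists only where a result turned on them. Nkain4, Rspo1, Pdpn, Bnc1, Cdh1, Calb2, Muc1, Aldh1a2, Cldn15 and the genes high in single mice were chosen after their values were seen. The members and lists were chosen with earlier results of these data known. The number of mice limits the precision. Alternatives were a fit without batch, either batch by itself, a block for replicate number, a robust prior with trend, a filter on low signals, quantile normalization, centring, array weights, the adipocyte mean as a covariate, Spearman's rho, leaving out the mice set apart and leaving out each mouse.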

Additional observations from a re-analysis of the deposited data

Results flagged for a closer look

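Among 20 groups of 10 mice (10 genes in 2 genotypes), 4 held a mouse whose gap to the nearest other mouse exceeded the critical share of the group's range, 0.466. Chance gives about 1 such group in 20. In wt replicate 6, Upk1b was 12.539 where the next wt mouse had 9.274, a gap of 0.592 of the range. In the same mouse Krt8 was 9.366, with the next at 6.119 (0.68 of the range), and Krt18 was 11.395, with the next at 6.546 (0.78 of the range). In cre replicate 2, Krt7 was 9.528 and the next cre mouse had 8.122, a gap of 0.47 of the range. In wt replicate 6 the seminal vesicle mean was 16.85 and in cre replicate 2 the bladder epithelium mean was 5.98, each the highest of the 20 mice; their part in the 4 values was not tested.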

How the results depend on the processing

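Msln, Upk3b, Upk1b, Wt1, Krt19, Lrrn4 and Gpm6a had a lower mean in cre mice in each of the 31 alternatives run, with Msln from −0.59 to −0.35 and Upk3b from −0.77 to −0.39. The unadjusted limma p of Msln was under 0.05 in 13 of the 31 and ran from 0.0122 to 0.212; it was not under 0.05 in 12 of the 20 fits that left out a mouse. Krt7, Krt8 and Krt18 turned sign. Krt7 was −0.26 in batch 1 alone and −0.20 without the 4 mice set apart, and from −0.21 to 0.14 when each mouse was left out. Krt8 was 0.030 in batch 1 alone, 0.14 with array weights, 0.20 with the adipocyte covariate, 0.30 without the 4 mice, and from −0.29 to 0.27 when each mouse was left out. Krt18 was 0.063 without the 4 mice and from −0.65 to 0.082 when each was left out; beyond the mice left out, the cause was not tested.

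The count of probe sets called for genotype, 1 in the reported fit, was 0 in batch 1 alone, 0 in batch 2 alone and 0 with the replicate number as a block in place of batch (limma; 1603, 1001 and 1293 probe sets had an unadjusted p under 0.05). Replicate numbers are shared by wt and cre mice in the titles, but same-numbered mice did not deviate together: correlations ran from −0.30 to 0.34 over 10 pairs, 4 were over 0.1, and 1 mouse pair correlated best with its own number. The count was 2, Tnf and Lyz2, without the 4 mice set apart, and 1 to 2 when each mouse was left out (2 without wt replicate 4). It was 232 by the rule of a fold of 1.5 or more with an unadjusted p under 0.05. Counts for batch and for the interaction were 0 in each of their 25 alternatives.

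Of the 45 pairs, 15 covaried; the count was 0 in batch 2 alone, where 14 had an unadjusted permutation p under 0.05, and 12 to 19 when each mouse was left out. Msln and Upk3b had r = 0.51 in batch 1 alone (permutation p = 0.155), which did not pass, and 0.57 to 0.69 when each mouse was left out. A different choice of probe set per gene was not run, since each of the 10 genes has 1.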

Other observations

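The mouse with the second highest Krt8, cre replicate 8 (6.89), carried some other epithelial genes at high signals, an observation made after its values were seen. Lrp2, an endocytic receptor of kidney tubules and other absorbing epithelia, was 9.63 there and at most 7.32 in the other mice. Prom1, a protein of apical membrane protrusions, was 9.66 there, and Cdh1 was 8.11, with wt replicate 6 higher for both (11.66 and 11.25). Most genes of the same lists were not raised in cre replicate 8. Highest of the 20 mice there were 2 of 7 kidney genes and 1 of 9 glandular epithelium genes. Low values there included Umod (4.29) and Aqp2 (4.34) of kidney and Cldn4 (4.40) and Grhl2 (4.38) of glandular epithelium. The seminal vesicle mean of cre replicate 8, 4.20, was the lowest of the 20 mice, and its bladder epithelium mean was 4.45. Msln, Upk3b and Lrrn4 had 6.36, 9.79 and 6.35 in this mouse, inside the ranges of the other cre mice.

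In wt replicate 5, the mouse with the highest Upk3b and Wt1, the macrophage mean was also the highest of the 20 mice, 14.52, and the adipocyte mean was 14.50, above wt replicate 6 at 13.94 alone. Over 20 mice with cell means removed, the macrophage mean had r = 0.09 with Upk3b and 0.46 with Wt1 (permutation adjusted p = 0.954 and 0.436). For the adipocyte mean these were −0.12 and −0.19 (permutation adjusted p = 0.941 and 0.871). In wt replicate 10, the highest for Msln, Lrrn4 and Gpm6a, the endothelial mean was the highest of the 20 mice, 10.79. Across the 20 mice that mean did not follow these genes, with r = 0.03 for Msln, 0.06 for Lrrn4 and −0.19 for Gpm6a (permutation adjusted p = 0.978, 0.965 and 0.860).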
